A study of Mus musculus with 8 samples.

Results

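The genes described here encode the machinery that licenses replication origins and runs the replication fork. They were chosen by name as a list of 48 genes in 6 roles, by a rule that uses no measured value. Earlier results of these data were known when the list was chosen. Of the 48, 46 had a row in the gene table of 34465 genes. All 46 were above the minimum signal used for testing and none was listed at 0 in any library. Cdt1 and Gins2 were not analysed here. RNA of whole mouse liver had been sequenced in 8 libraries, 2 from each of 4 groups. All mice carried b-PDGFR fl/fl, floxed alleles of the gene for the beta receptor of platelet-derived growth factor, on the strain 129S4/SvJae/FVB, and were 3 months old. The groups were Cre-positive hepatectomy (GFAP Cre +/-, liver taken 72 h after partial hepatectomy), Cre-negative hepatectomy (GFAP Cre -/-, also at 72 h), Cre-positive sham and Cre-negative sham. Cre was driven by the GFAP promoter, and the labels describe the resulting deletion as specific to hepatic stellate cells, the vitamin A-storing pericytes of the liver. Separate animals are not stated for the duplicates, so p-values measure only the spread between libraries, which may be technical.

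Replication is prepared and carried out in steps. The origin recognition complex (ORC) marks origins, and CDC6 and CDT1 then load the ring-shaped MCM helicase, which geminin prevents later in the cycle by binding CDT1. The kinase CDC7 with its activator DBF4, together with CDC45 and the GINS complex, turns the loaded helicase into an active one, and primase, the replicative polymerases, the sliding clamp and the Okazaki fragment enzymes follow. Hepatocytes of the adult liver rarely divide and re-enter the cell cycle in large numbers after partial hepatectomy, and many of these genes are known targets of the E2F transcription factors.

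Values are the deposited normalized signal per gene, whose depth is unknown. Fold changes are differences of log2(signal + 1), so that changes of weakly expressed genes come out too small, and their errors are standard errors (SE) of a limma model with 2 libraries per group. A gene was called when its Benjamini-Hochberg adjusted p over 16443 genes was below 0.05. Gene signal summed to 10402105 and 11583777 in Cre-positive and 8617664 and 9402626 in Cre-negative hepatectomy livers. In the sham libraries it summed to between 10115909 and 10262017. Pdgfrb, the floxed gene, was at 63.1 and 99.9 in Cre-positive and 122.6 and 70.5 in Cre-negative hepatectomy livers, against 59.4 and 46.0 in Cre-positive and 49.8 and 63.3 in Cre-negative sham livers. The libraries labelled Cre-positive overlapped the others in each condition, with a log2 difference of -0.23 after hepatectomy (SE 0.39, adjusted p = 0.769) and -0.10 in sham livers (SE 0.39, adjusted p = 1.0). All 8 hepatocyte markers had rows, but Alb, the albumin gene, was listed at 0 in 7 of the 8 libraries. Cre-positive hepatectomy replicate 2 stood furthest apart by GC content, and counts are also given without it. Relative to the sham mean, 3992 genes with less than 45% GC had a median log2 difference of -0.97 there. For 7651 genes with at least 50% GC it was 0.56. The same medians were 0.01 and 0.47 in Cre-negative hepatectomy replicate 1 and -0.02 and 0.29 in its replicate 2. In Cre-positive hepatectomy replicate 1 they were -0.01 and -0.09.

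Replication genes were higher after hepatectomy as a group, and the helicase subunits Mcm6 and Mcm5, the fork protection factor Clspn and the loader Cdc6 were among those that moved most. Averaged over genotypes, 28 of the 46 rose and 0 fell, where 3.64% of all genes tested rose and 0.845% fell. Their median log2 fold change was 1.56, against 0.12 over all 16443 genes, and 41 of the 46 were above 0 (57.7% of all genes). In 33 of the 46 every one of the 4 hepatectomy libraries was above every one of the 4 sham libraries, as in 11.2% of all genes. By library, the median log2 difference of the 46 genes from the sham mean was 1.70 and 1.60 in Cre-positive hepatectomy and 1.14 and 1.27 in Cre-negative hepatectomy livers, and lay between -0.09 and 0.13 in the sham libraries. No replicate of either hepatectomy group was near the sham level. In bulk liver, a larger share of cells in S phase and more of each RNA per such cell cannot be told apart.

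The number called depended on single libraries. Leaving out a library changes the spread estimated for every gene. The share of all genes called in such fits is not given here or below, so these counts have no background beside them. It was 13 without Cre-negative sham replicate 1, 17 without replicate 2 of that group, 15 without either Cre-positive sham library and 18 without Cre-negative hepatectomy replicate 1. Without Cre-positive hepatectomy replicate 1 it was 36, of which 33 rose and Mcm10, Orc3 and Orc4 fell. Without Cre-positive hepatectomy replicate 2 it was 32, with Mcm4, Orc6, Pcna, Pola1 and Tipin gained and Timeless lost. A set of 13 genes was called in the full fit and in every fit that left out a library: Cdc6, Orc1, Mcm2, Mcm3, Mcm5, Mcm6, Pole, Rpa2, Clspn, Lig1, Fen1, Chaf1a and Chaf1b. Markers of cell types moved with hepatectomy as well. The summed signal of 7 hepatocyte markers other than Alb was 281308 to 363818 in Cre-positive and 186792 to 270933 in Cre-negative hepatectomy livers, against 419155 to 512133 in Cre-positive and 425192 to 456333 in Cre-negative sham livers, with Cyp2e1 and Tat past the test. The sum of 6 stellate cell markers was 646 to 676 in Cre-positive and 544 to 584 in Cre-negative hepatectomy livers, against 735 to 1046 in Cre-positive and 1010 to 1077 in Cre-negative sham livers, with Colec10 past the test. This list includes Pdgfrb, the floxed gene, which did not fall with the sum (log2 fold change 0.66, SE 0.27, adjusted p = 0.204). For 4 erythroid markers, Hba-a1, Hbb-b1, Alas2 and Slc4a1, it was 6722 to 34151 in Cre-positive and 11877 to 18137 in Cre-negative hepatectomy livers, against 3548 to 6164 in Cre-positive and 5642 to 5719 in Cre-negative sham livers, with Slc4a1 past the test. In the list of 6 sinusoidal endothelial markers Kdr and Oit3 fell (median log2 fold change -0.73), and the sum was 1809 to 2547 in Cre-positive and 1186 to 2142 in Cre-negative hepatectomy livers, against 2443 to 3227 in Cre-positive and 2402 to 3058 in Cre-negative sham livers. The erythroid sum was thus higher after hepatectomy, the hepatocyte and stellate sums were lower and the endothelial sums overlapped. Kupffer cell, cholangiocyte and leukocyte sums also overlapped, and the part of these markers in the replication gene result was not tested.

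**Figure D1:**
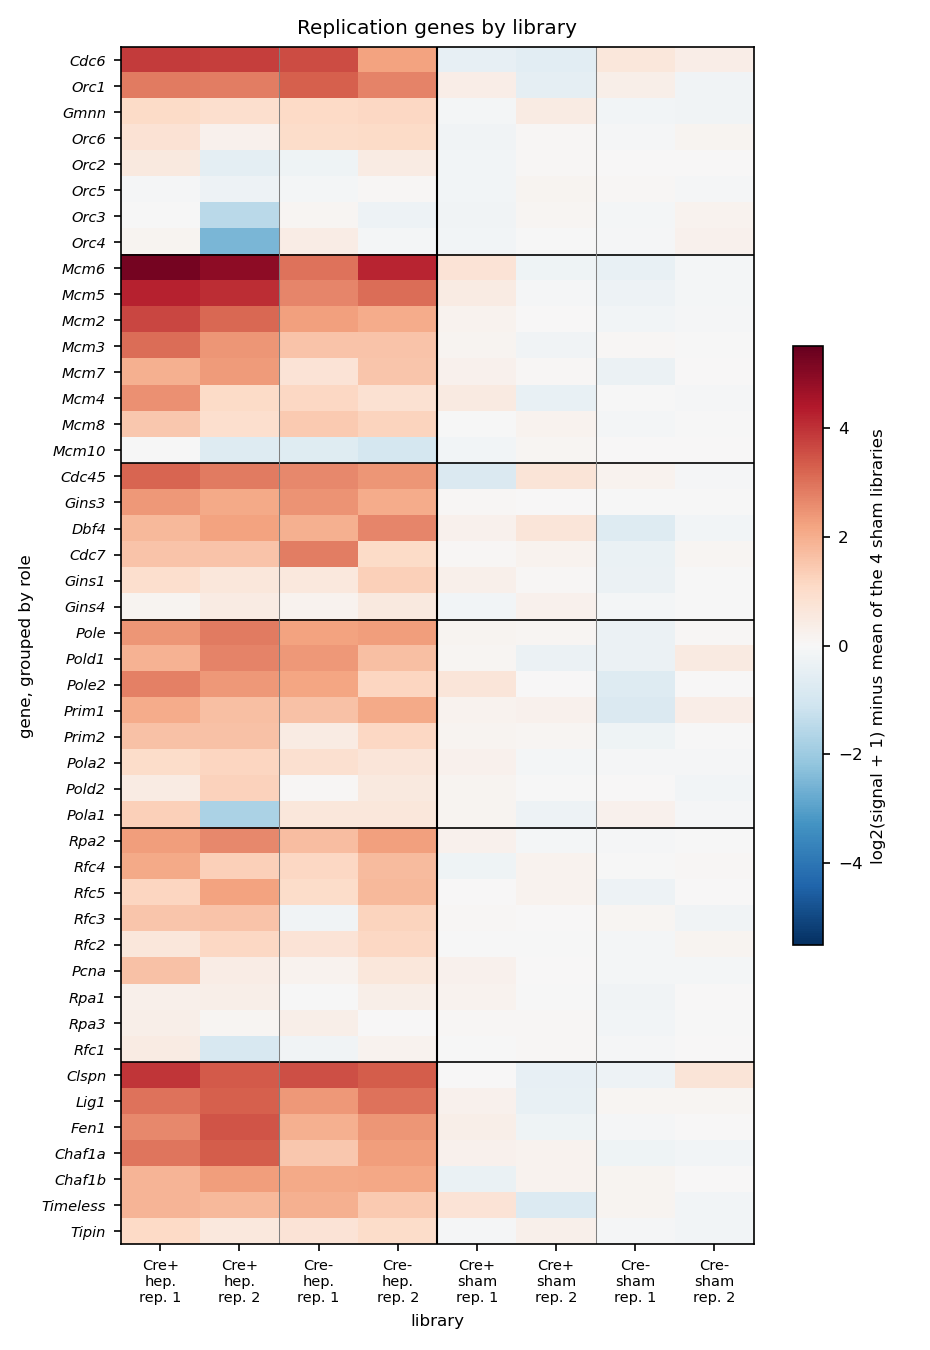
Level of each of the 46 replication genes in each library, as log2(signal + 1) minus the mean of the 4 sham libraries; rows are genes grouped by role and ordered by fold change within a role, and columns are libraries with hepatectomy on the left. Most rows are red in all 4 hepatectomy columns, while Orc2, Orc3, Orc4, Orc5, Mcm10, Pola1, Rfc1, Rfc3 and Rpa1 have a value below 0 in at least 1 of them, and the darkest blue cells belong to Orc4 and Pola1 in Cre-positive hepatectomy replicate 2.

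Among the genes of origin recognition and licensing, 3 of 8 rose (median log2 fold change 0.41), and the 6 ORC subunits did not move alike. Orc1, the ATPase subunit that in mammalian cells is turned over with the cell cycle, was at 12.7 and 12.2 in Cre-positive and 17.4 and 11.4 in Cre-negative hepatectomy livers, against 1.40 and 0.350 in Cre-positive and 1.35 and 0.667 in Cre-negative sham livers. All 4 hepatectomy values were far above all 4 sham values, a 7.56-fold difference (log2 2.92, SE 0.32, adjusted p = 0.00547). Orc6, the smallest and most loosely bound subunit, was at 38.7 and 26.1 in Cre-positive and 44.7 and 45.5 in Cre-negative hepatectomy livers, against 19.1 and 22.9 in Cre-positive and 20.9 and 24.2 in Cre-negative sham livers. The groups did not overlap, but its log2 fold change of 0.78 (SE 0.23) did not pass (adjusted p = 0.111).

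Orc2 to Orc5 did not pass, and their hepatectomy and sham values overlapped. Orc5 was at 127 and 109 in Cre-positive and 124 and 142 in Cre-negative hepatectomy livers, against 121 and 148 in Cre-positive and 139 and 130.1 in Cre-negative sham livers (log2 fold change -0.10, SE 0.18, adjusted p = 0.733). Orc2 had a log2 fold change of 0.05 (SE 0.30, adjusted p = 0.928), which was -0.11 with median-of-ratios scaling and -0.10 with quantile normalization. Orc3 was at 239 and 85.4 in Cre-positive and 257 and 199 in Cre-negative hepatectomy livers, against 210.4 and 257 in Cre-positive and 223 and 277 in Cre-negative sham livers (log2 fold change -0.42, SE 0.33, adjusted p = 0.451). Orc4 was at 190.3 and 29.6 in Cre-positive and 228 and 163 in Cre-negative hepatectomy livers, against 157 and 173 in Cre-positive and 165 and 202 in Cre-negative sham livers (log2 fold change -0.52, SE 0.53, adjusted p = 0.554). The low value of both genes was that of Cre-positive hepatectomy replicate 2, and without it the log2 fold change was -0.05 for Orc3 and 0.14 for Orc4. In the reference annotation Orc4 overlaps Mbd5 and Orc1 overlaps Prpf38a and Gm12743, and the labels do not say whether strand was kept.

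**Figure D2:**
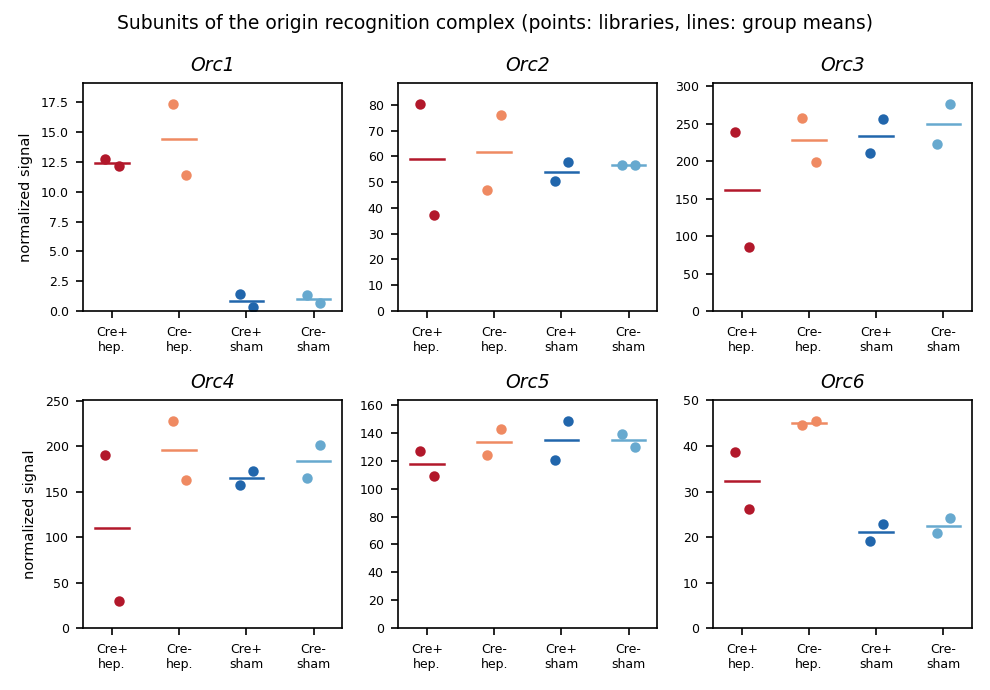
Normalized signal (linear axes from 0, a scale for each gene) of the 6 origin recognition complex subunits; points are libraries and lines are the means of the 2 libraries of a group. Only the panel of Orc1 separates hepatectomy from sham by several-fold; Orc6 separates by a smaller margin, and Orc2, Orc3, Orc4 and Orc5 overlap.

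Both loading regulators rose. Cdc6, the ATPase that loads the helicase with ORC, was at 42.4 and 41.4 in Cre-positive and 35.9 and 12.9 in Cre-negative hepatectomy livers, against 1.23 and 1.05 in Cre-positive and 3.63 and 2.95 in Cre-negative sham livers. The hepatectomy libraries were all above the sham libraries, although the Cre-negative pair differed from each other by more than the Cre-positive pair, and the difference was 10.3-fold (log2 3.37, SE 0.35, adjusted p = 0.00449). Gmnn, geminin, which keeps CDT1 from loading more helicase, was at 176 and 161 in Cre-positive and 184 and 189 in Cre-negative hepatectomy livers, against 78.7 and 118 in Cre-positive and 75.8 and 75.2 in Cre-negative sham livers. That was a 2.07-fold difference (log2 1.05, SE 0.19, adjusted p = 0.0328), with no overlap between hepatectomy and sham.

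The promoter windows of the contrasting pair in ORC, Orc1, which rose, and Orc5, which did not pass, are shown because they differ in E2F-like letters. They are RefSeq sequences of GRCm38.p6 on the gene's own strand, 250 bases before to 50 after the annotated start, at chr4:108579204-108579503 (plus strand) for Orc1 and chr5:22550289-22550588 (minus strand) for Orc5. Capitals mark TTTCCCGC, TTTGGCGC, TTTCGCGC or TTTGCCGC on either strand, the 4 E2F-like words searched. The Orc1 window holds one such word, which begins 27 bases upstream of the start, and the Orc5 window holds none. The other subunits did not all follow this pair. Orc3, which did not pass, holds a word that begins 41 bases upstream. Orc6 holds none, and neither do Orc2 and Orc4 in any of their windows.
Orc1: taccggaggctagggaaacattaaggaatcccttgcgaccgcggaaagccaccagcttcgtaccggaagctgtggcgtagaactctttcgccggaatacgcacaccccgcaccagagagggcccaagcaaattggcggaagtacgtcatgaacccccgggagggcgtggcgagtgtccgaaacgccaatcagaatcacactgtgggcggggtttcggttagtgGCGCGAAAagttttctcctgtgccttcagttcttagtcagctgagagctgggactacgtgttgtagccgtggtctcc
Orc5: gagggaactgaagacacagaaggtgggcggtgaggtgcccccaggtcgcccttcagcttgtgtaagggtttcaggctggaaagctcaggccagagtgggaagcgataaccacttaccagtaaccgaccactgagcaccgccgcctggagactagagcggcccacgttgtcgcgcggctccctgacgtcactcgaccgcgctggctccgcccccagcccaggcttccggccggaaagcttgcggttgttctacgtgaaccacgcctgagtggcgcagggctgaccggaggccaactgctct

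Of the MCM genes 6 of 8 rose, with a median log2 fold change of 1.91. Of the 6 subunits of the helicase ring, MCM2 to MCM7, 5 rose, and all 6 had 4 hepatectomy libraries above the 4 sham libraries. Mcm6 was at 637 and 497 in Cre-positive and 129 and 305 in Cre-negative hepatectomy livers, against 27.3 and 13.1 in Cre-positive and 11.4 and 14.2 in Cre-negative sham livers, a 20.2-fold difference (log2 4.34, SE 0.35, adjusted p = 0.00288). This was the highest log2 fold change among the 46 genes. Mcm5 was at 649.9 and 584 in Cre-positive and 220.0 and 288 in Cre-negative hepatectomy livers, against 46.8 and 32.6 in Cre-positive and 27.2 and 31.2 in Cre-negative sham livers, an 11.4-fold difference (log2 3.50, SE 0.20, adjusted p = 0.00139). Its adjusted p was the smallest of the 46.

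Mcm2 was at 283 and 196 in Cre-positive and 106 and 89.9 in Cre-negative hepatectomy livers, against 24.4 and 21.4 in Cre-positive and 19.3 and 20.4 in Cre-negative sham livers (6.85-fold, log2 2.78, SE 0.21, adjusted p = 0.00288). Mcm3 was at 363 and 229.9 in Cre-positive and 127 and 126 in Cre-negative hepatectomy livers, against 47.0 and 36.5 in Cre-positive and 43.5 and 40.9 in Cre-negative sham livers (4.50-fold, log2 2.17, SE 0.22, adjusted p = 0.00405). In both genes sham libraries lay close together and each hepatectomy library was far above the highest of them. Mcm7 rose too (log2 fold change 1.65, SE 0.23, adjusted p = 0.0121). Mcm4, with 249 and 89.2 in the Cre-positive hepatectomy pair, had a log2 fold change of 1.39 (SE 0.37) and did not pass (adjusted p = 0.0881).

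**Figure D3:**
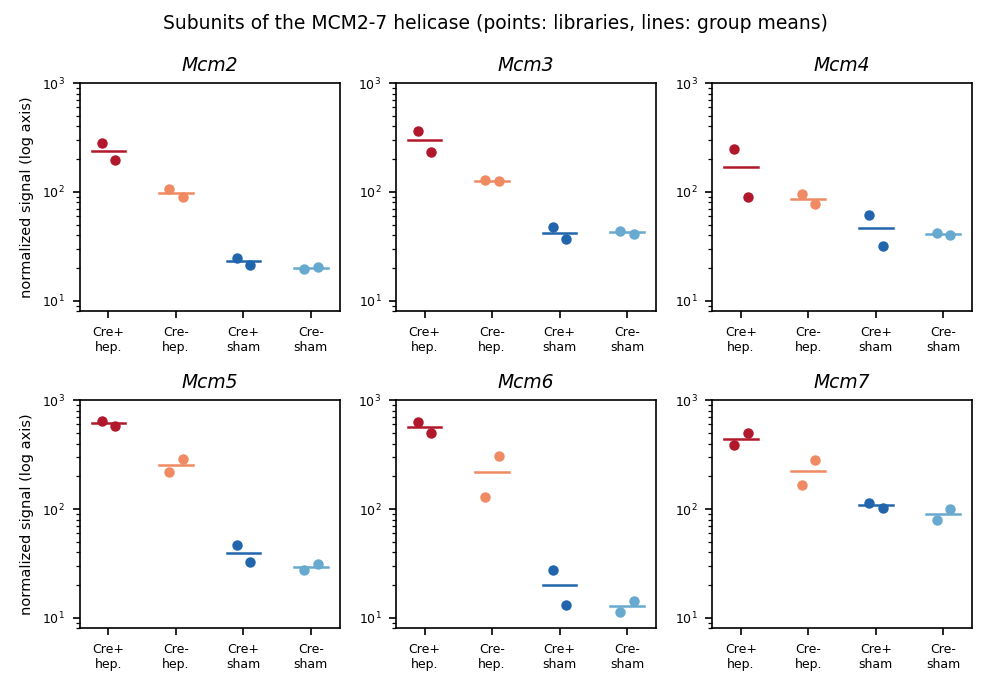
Normalized signal (log axes, one range for all panels) of the 6 subunits of the MCM helicase ring; points are libraries and lines are the means of the 2 libraries of a group. In each panel the hepatectomy points lie above the sham points, and in each panel other than Mcm4 the Cre-positive hepatectomy points lie above the Cre-negative hepatectomy points.

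Outside the ring, Mcm8, a paralog that works with MCM9 in recombination, rose 2.40-fold (log2 1.26, SE 0.23, adjusted p = 0.0308). Mcm10, a fork factor that binds the active helicase and does not belong to the ring, was at 427 and 264 in Cre-positive and 277 and 222 in Cre-negative hepatectomy livers, against 391 and 474 in Cre-positive and 435 and 439.8 in Cre-negative sham livers. One Cre-positive hepatectomy library lay among the sham libraries and the other three lay below them, for a log2 fold change of -0.59 (SE 0.21, adjusted p = 0.156). Its isoforms did not move together. Isoform Mcm10-006 was at 21.9 and 31.9 in Cre-positive and 12.2 and 7.99 in Cre-negative hepatectomy livers, and at most 2.66 in any sham library. Mcm10-005, the isoform with the highest values in sham livers, was at 115 and 74.2 in Cre-positive and 114.6 and 107 in Cre-negative hepatectomy livers, against 153 and 155 in Cre-positive and 157 and 152 in Cre-negative sham livers. All 4 hepatectomy values of Mcm10-005 were below all 4 sham values, the opposite order to Mcm10-006. These isoform values were chosen after they were seen and were not tested.

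Promoter windows of helicase genes that rose did not all hold the E2F-like words. Those of Mcm6 (chr1:128359656-128359955, minus strand), Mcm5 (chr8:75109259-75109558, plus strand) and Mcm2 (chr6:88898731-88899030, minus strand) are shown with the same marks and orientation. The Mcm6 window holds 3, beginning 110, 106 and 47 bases upstream of the start, of which the first pair overlap. The Mcm5 window holds 2 that overlap, beginning 153 and 149 bases upstream. The Mcm2 window holds none.
Mcm6: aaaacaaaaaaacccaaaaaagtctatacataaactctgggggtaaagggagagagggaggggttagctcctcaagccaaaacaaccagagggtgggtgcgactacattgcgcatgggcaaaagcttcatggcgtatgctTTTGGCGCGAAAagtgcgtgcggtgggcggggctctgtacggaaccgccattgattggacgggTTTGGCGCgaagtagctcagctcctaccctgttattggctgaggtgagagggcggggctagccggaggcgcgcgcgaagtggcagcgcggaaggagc
Mcm5: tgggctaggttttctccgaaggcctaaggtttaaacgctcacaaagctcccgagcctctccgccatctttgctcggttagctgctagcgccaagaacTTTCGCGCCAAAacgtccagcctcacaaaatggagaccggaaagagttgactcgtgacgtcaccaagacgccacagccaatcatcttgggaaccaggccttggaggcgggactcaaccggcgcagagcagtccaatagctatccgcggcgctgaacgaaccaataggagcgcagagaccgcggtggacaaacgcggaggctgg
Mcm2: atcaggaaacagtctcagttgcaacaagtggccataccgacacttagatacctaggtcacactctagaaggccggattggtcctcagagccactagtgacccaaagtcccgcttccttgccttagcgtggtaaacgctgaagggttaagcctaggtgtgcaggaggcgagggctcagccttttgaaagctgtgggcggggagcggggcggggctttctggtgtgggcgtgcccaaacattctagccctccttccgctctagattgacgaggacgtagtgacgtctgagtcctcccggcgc

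Over the whole group, 39 of the 48 genes matched the RefSeq promoter table, with 48 windows between them. At least one E2F-like word was in 16 of the 39 (41.0%), against 2.6% of 27025 genes with windows of the same length. Those 27025 are all genes with a window, tested here or not, and were not matched for the GC content of the window. The CHR words TTTGAA and TTCGAA, on either strand, were in 23.1% against 21.7% of all genes, and CCAAT, on either strand, in 61.5% against 41.1%. No E2F-like word contains a CHR or CCAAT word. Among matched genes that rose, 12 of 24 held an E2F-like word, against 3 of 14 among those that did not pass, which are Orc3, Pola1 and Rfc3. The remaining gene with a word, Cdt1, has no value here. A match describes letters in a window and shows no binding.

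The firing factors rose in 3 of 6 cases (median log2 fold change 1.95). Cdc45, a component of the active helicase, was at 150.3 and 121 in Cre-positive and 103 and 87.9 in Cre-negative hepatectomy livers, against 8.49 and 25.9 in Cre-positive and 18.1 and 14.8 in Cre-negative sham livers (6.84-fold, log2 2.77, SE 0.35, adjusted p = 0.00821). The sham libraries differed among themselves and still lay well below every hepatectomy library. Dbf4, the activating subunit of the CDC7 kinase, was at 64.9 and 87.8 in Cre-positive and 73.8 and 125 in Cre-negative hepatectomy livers, against 21.7 and 29.2 in Cre-positive and 10.6 and 16.2 in Cre-negative sham livers (4.48-fold, log2 2.16, SE 0.28, adjusted p = 0.0095). Cdc7 itself was at 10.1 and 10.2 in Cre-positive and 25.2 and 6.75 in Cre-negative hepatectomy livers, against 2.93 and 3.25 in Cre-positive and 1.94 and 3.10 in Cre-negative sham livers. Its groups did not overlap, but the Cre-negative hepatectomy pair lay far apart and the log2 fold change of 1.74 (SE 0.42) did not pass (adjusted p = 0.0657).

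The GINS subunits, which join CDC45 on the helicase, differed among themselves. Gins3 was at 8.55 and 6.77 in Cre-positive and 9.15 and 6.42 in Cre-negative hepatectomy livers, against 0.929 and 0.829 in Cre-positive and 0.781 and 0.780 in Cre-negative sham livers (4.73-fold, log2 2.24, SE 0.27, adjusted p = 0.00776). The replicates of each group were close, and all sham values were below 1. Gins1 had a log2 fold change of 0.86 (adjusted p = 0.0984) and Gins4 one of 0.34 (adjusted p = 0.303), and neither passed.

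Of the polymerase and primase genes 6 of 8 rose, with a median log2 fold change of 1.52. Pole, the catalytic subunit of polymerase epsilon, which copies the leading strand, was at 169 and 231 in Cre-positive and 145 and 155 in Cre-negative hepatectomy livers, against 34.5 and 33.1 in Cre-positive and 24.3 and 32.7 in Cre-negative sham livers (5.44-fold, log2 2.44, SE 0.21, adjusted p = 0.00288). Pole2, its second subunit, was at 56.6 and 42.6 in Cre-positive and 36.4 and 17.9 in Cre-negative hepatectomy livers, against 12.2 and 7.49 in Cre-positive and 4.10 and 7.39 in Cre-negative sham livers (4.39-fold, log2 2.13, SE 0.34, adjusted p = 0.021). For both genes every hepatectomy library exceeded every sham library.

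Pold1, the catalytic subunit of polymerase delta, which completes the lagging strand, was at 82.6 and 144 in Cre-positive and 114 and 68.4 in Cre-negative hepatectomy livers, against 22.8 and 16.7 in Cre-positive and 16.6 and 30.0 in Cre-negative sham livers (4.52-fold, log2 2.18, SE 0.32, adjusted p = 0.0154). Its accessory subunit Pold2 had a log2 fold change of 0.58 (SE 0.24) and did not pass (adjusted p = 0.206). Prim1, the catalytic subunit of primase, which lays the RNA primers, was at 200.2 and 149 in Cre-positive and 145 and 202 in Cre-negative hepatectomy livers, against 53.6 and 56.3 in Cre-positive and 26.8 and 61.4 in Cre-negative sham livers (3.58-fold, log2 1.84, SE 0.30, adjusted p = 0.0215). Prim2 rose by 1.21 on the log2 scale (adjusted p = 0.0339) and Pola2, the B subunit of polymerase alpha, by 0.94 (adjusted p = 0.0365). Pola1, the catalytic subunit of polymerase alpha, was at 137 and 15.9 in Cre-positive and 84.5 and 85.5 in Cre-negative hepatectomy livers, against 60.3 and 44.2 in Cre-positive and 63.7 and 52.3 in Cre-negative sham livers. Cre-positive hepatectomy replicate 2 was below all other libraries, and the other three hepatectomy libraries were above all sham libraries (log2 fold change 0.21, SE 0.60, adjusted p = 0.842). Without that library it rose by 0.97 on the log2 scale (adjusted p = 0.0408), and without Cre-positive hepatectomy replicate 1 the value was -0.54 (adjusted p = 0.0701).

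Among the clamp, clamp loader and single-strand binding genes 4 of 9 rose (median log2 fold change 0.91). Rpa2, the middle subunit of the single-strand binding complex, was at 138 and 177 in Cre-positive and 91.5 and 132 in Cre-negative hepatectomy livers, against 31.9 and 25.1 in Cre-positive and 25.8 and 26.4 in Cre-negative sham livers (4.69-fold, log2 2.23, SE 0.22, adjusted p = 0.0039). Neither of its partners passed: the log2 fold change was 0.24 for Rpa1 (SE 0.16, adjusted p = 0.387), whereas Rpa3 had one of 0.20 (SE 0.19, adjusted p = 0.514). In the clamp loader, which opens the clamp and places it on DNA, Rfc4 was at 146 and 85.0 in Cre-positive and 74.9 and 116 in Cre-negative hepatectomy livers, against 28.6 and 39.0 in Cre-positive and 32.8 and 35.2 in Cre-negative sham livers (2.96-fold, log2 1.57, SE 0.27, adjusted p = 0.0252). Rfc5 rose 2.91-fold (log2 1.54, SE 0.30, adjusted p = 0.0357), with 138 and 286 in Cre-positive and 124 and 210.4 in Cre-negative hepatectomy livers, against 62.2 and 70.1 in Cre-positive and 50.3 and 62.7 in Cre-negative sham livers. No sham library of either gene reached a hepatectomy library.

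Rfc2, another of the small loader subunits, was at 442 and 621 in Cre-positive and 476 and 629 in Cre-negative hepatectomy livers, against 278 and 283 in Cre-positive and 264 and 314 in Cre-negative sham livers (1.88-fold, log2 0.91, SE 0.19, adjusted p = 0.0446). Rfc1, the large subunit, was at 314 and 127 in Cre-positive and 204 and 268 in Cre-negative hepatectomy livers, against 229 and 244 in Cre-positive and 222 and 235 in Cre-negative sham livers. Its hepatectomy libraries lay on both sides of the sham libraries (log2 fold change -0.10, SE 0.29, adjusted p = 0.845; 0.22 without Cre-positive hepatectomy replicate 2). Rfc3 had a log2 fold change of 1.03 and did not pass (adjusted p = 0.123). Pcna, the sliding clamp and a common marker of proliferation, was at 909 and 397 in Cre-positive and 341 and 453 in Cre-negative hepatectomy livers, against 346 and 298 in Cre-positive and 272 and 277 in Cre-negative sham livers. A Cre-negative hepatectomy library fell within the sham range, and the log2 fold change of 0.71 (SE 0.28) did not pass (adjusted p = 0.185).

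Okazaki fragment, fork protection and chromatin assembly genes rose in 6 of 7 cases, with a median log2 fold change of 2.51. Clspn, claspin, a mediator of the checkpoint kinase that travels with the fork, was at 53.6 and 35.7 in Cre-positive and 40.7 and 34.7 in Cre-negative hepatectomy livers, against 2.62 and 1.57 in Cre-positive and 1.87 and 4.80 in Cre-negative sham livers (11.8-fold, log2 3.56, SE 0.33, adjusted p = 0.00338). Lig1, the ligase that seals Okazaki fragments, was at 310.2 and 381 in Cre-positive and 204 and 311 in Cre-negative hepatectomy livers, against 44.8 and 28.1 in Cre-positive and 41.0 and 40.5 in Cre-negative sham livers (7.56-fold, log2 2.92, SE 0.24, adjusted p = 0.00288). Fen1, the flap nuclease that acts before the ligase, rose 6.16-fold (log2 2.62, SE 0.29, adjusted p = 0.00557). Sham values of Clspn and Lig1 were well separated from hepatectomy values in every library.

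Chaf1a, the large subunit of the chromatin assembly factor that puts histones on new DNA, was at 101 and 132 in Cre-positive and 36.4 and 65.7 in Cre-negative hepatectomy livers, against 14.6 and 14.1 in Cre-positive and 10.3 and 11.1 in Cre-negative sham livers (5.71-fold, log2 2.51, SE 0.26, adjusted p = 0.00443). Its partner Chaf1b was at 111 and 148 in Cre-positive and 129.8 and 132 in Cre-negative hepatectomy livers, against 22.8 and 33.7 in Cre-positive and 33.3 and 29.8 in Cre-negative sham livers (4.27-fold, log2 2.10, SE 0.22, adjusted p = 0.00443). The 2 hepatectomy groups were apart for Chaf1a and overlapped for Chaf1b. In the reference annotation Chaf1a overlaps Ubxn6, Lig1 overlaps Zswim9 and Fen1 overlaps Tmem258, so some of their reads may belong to a neighbour. The same holds for Mcm7 with Ap4m1, Cdc45 with Ufd1, Pole2 with Klhdc1 and Rfc4 with Eif4a2, which rose as well. Timeless, a subunit of the fork protection complex, rose by 1.76 (SE 0.35, adjusted p = 0.0398) on the log2 scale, and its partner Tipin had a log2 fold change of 0.87 and did not pass (adjusted p = 0.0738).

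Within each genotype 2 libraries stood against 2, and fewer genes passed. In Cre-positive livers 15 of the 46 rose and 0 fell (0.845% and 0.0973% of all genes), with a median log2 fold change of 1.56 against 0.02 over all genes. In Cre-negative livers 11 rose and 0 fell (1.01% and 0.103% of all genes), with a median of 1.42 against 0.21. A total of 9 genes passed in both, 6 in Cre-positive livers alone and 2 in Cre-negative livers alone, and the last 2 groups were not shown to differ by passing in one genotype. Those that passed in both were Orc1, Mcm2, Mcm5, Mcm6, Pole, Rpa2, Clspn, Lig1 and Chaf1b. The Cre-positive count was 0 or 1 without any 1 of the 4 sham libraries, 9 and 7 without Cre-negative hepatectomy replicates 1 and 2, 7 without Cre-positive hepatectomy replicate 2, and 28 without its replicate 1, of which 24 rose and Orc3, Orc4, Pola1 and Rfc1 fell. The Cre-negative count was 0 without any 1 of the 4 sham or 2 Cre-negative hepatectomy libraries, and 26 and 25 without Cre-positive hepatectomy replicates 1 and 2, with Mcm10 the only one that fell in each.

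**Figure D4:**
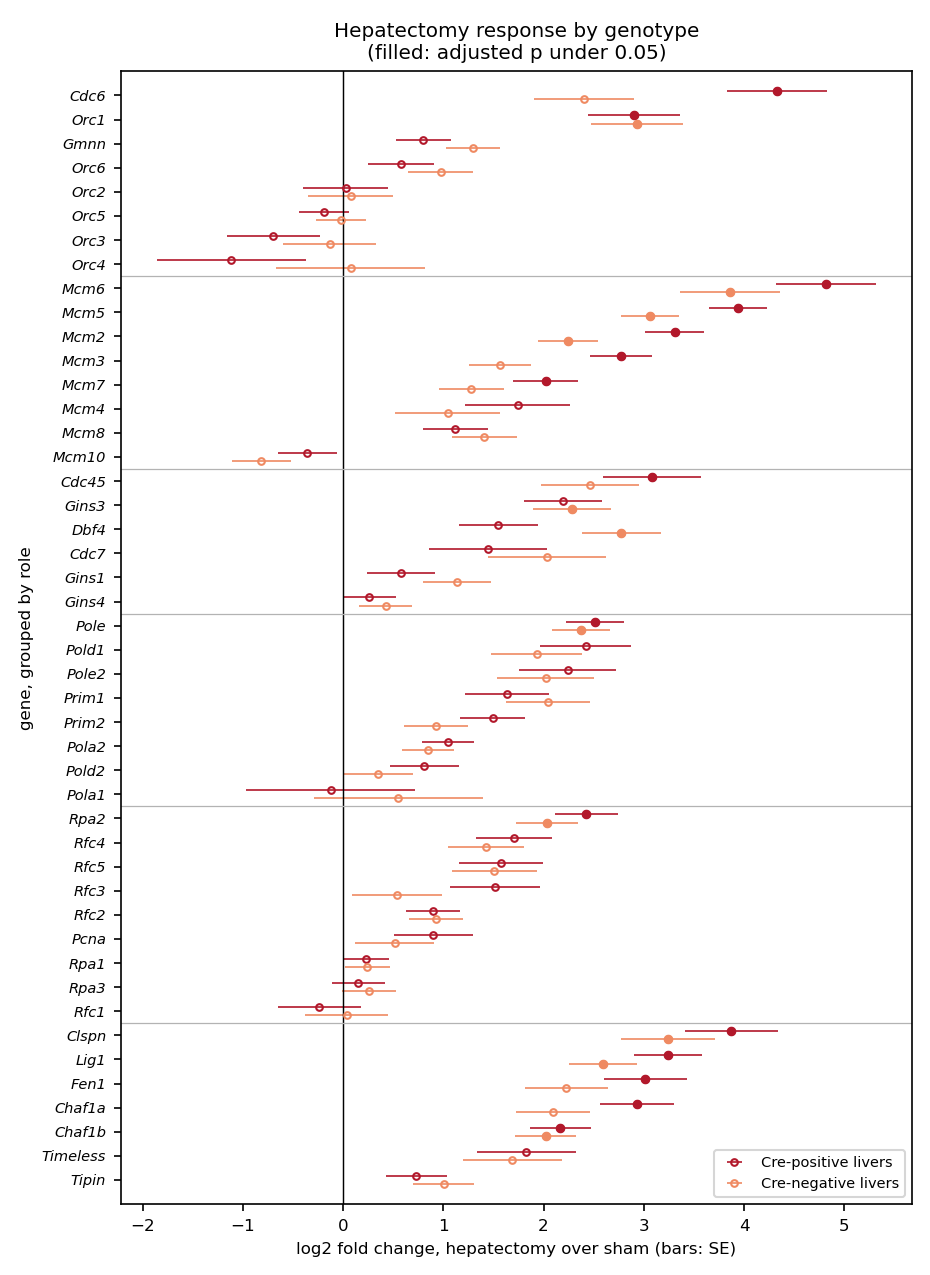
Log2 fold change of hepatectomy over sham for each of the 46 genes in Cre-positive (dark red) and Cre-negative (orange) livers, with bars of 1 SE and filled points for adjusted p below 0.05. Most points lie to the right of 0 in both genotypes. For the 6 helicase ring genes the Cre-positive point lies beyond the error bar of the Cre-negative point. The bars do not test that difference, and the difference of responses passed in none of the 6 genes. The widest bars belong to Pola1 and Orc4.

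The design sets the genotypes side by side in each condition. Between Cre-positive and Cre-negative sham livers 0 of the 46 genes differed (0.00608% of all genes did), also 0 at an unadjusted p under 0.05 (0.888% of all genes), with a median log2 difference of 0.10 against -0.03 over all genes. Between Cre-positive and Cre-negative hepatectomy livers 0 differed (0.0182% of all genes), while 7 were higher and 0 lower at an unadjusted p under 0.05, against 5.84% and 12.5% of all genes. Their median log2 difference was 0.23, against -0.23 over all genes. The difference of the hepatectomy responses between genotypes passed in 0 genes (0.0122% of all), with 3 higher at an unadjusted p under 0.05 (2.79% of all), Mcm2, Mcm3 and Cdc6.

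The genotype differences with the smallest adjusted p-values after hepatectomy were those of Mcm5, Mcm2 and Mcm3, subunits of the helicase ring. All 6 of its genes were higher in Cre-positive than in Cre-negative hepatectomy livers, by between 0.79 and 1.50 on the log2 scale (median 1.22), and in 5 of them, all but Mcm4, the 2 Cre-positive libraries were above the 2 Cre-negative ones (14.2% of all genes). Adjusted p-values lay between 0.130 and 0.431, and no gene passed. Mcm5 had the smallest unadjusted p, 0.00272, with a log2 difference of 1.29 (SE 0.29, adjusted p = 0.130), and Mcm6 the largest difference, 1.50 (SE 0.50, adjusted p = 0.208). In sham livers 5 of the 6 were also above 0, with a median log2 difference of 0.24. In 3 of the 6 the Cre-positive sham libraries were above the Cre-negative sham libraries. Of all 46 genes, 15 had this order after hepatectomy (14.2% of all genes) and 13 had it in sham livers (12.1%). The difference of responses lay between 0.70 and 1.21 on the log2 scale in the 6 genes, with adjusted p-values between 0.590 and 0.797. Outside the ring, Chaf1a had a log2 difference of 1.23 (SE 0.37, unadjusted p = 0.012, adjusted p = 0.179) and Prim2 one of 0.83 (SE 0.32, unadjusted p = 0.0359, adjusted p = 0.247), and neither passed. The summed signal of 6 Kupffer cell markers was 3385 and 3389.8 in Cre-positive hepatectomy livers and 1444 and 1905 in Cre-negative hepatectomy livers, so it was higher in the Cre-positive pair. The hepatocyte and stellate sums given above, the latter including the floxed gene Pdgfrb, were also higher in that pair. The sum of 4 cholangiocyte markers was lower, at 37.3 and 62.8 in Cre-positive and 114 and 165 in Cre-negative hepatectomy livers. Total gene signal was also higher in the Cre-positive hepatectomy pair. The part of these markers and of total signal in the genotype values was not tested.

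Not all replication genes stood this way. In Cre-positive hepatectomy livers Orc6 and Gmnn were the 2 genes whose libraries lay below those of Cre-negative hepatectomy livers (26.3% of all genes), with log2 differences of -0.49 (SE 0.33, adjusted p = 0.431) and -0.15 (SE 0.27, adjusted p = 0.792). Dbf4 had the most negative difference of responses, -1.23 on the log2 scale (unadjusted p = 0.0626, adjusted p = 0.639), and Cdc6 the most positive, 1.92 (unadjusted p = 0.0287, adjusted p = 0.591). The number of genes on each side depended on the scaling, and the median stayed above 0: 28 of the 46 were higher in Cre-positive hepatectomy livers with the deposited values (37.0% of all genes), 36 with median-of-ratios scaling (45.6%), 36 with quantile scaling (52.0%) and 43 after adjustment for GC content (54.4%), and the 6 ring genes were higher in each of these. Without Cre-positive hepatectomy replicate 2 it was 33 of the 46 (37.9% of all genes). Without Cre-positive hepatectomy replicate 1, Orc3 (log2 difference -1.40), Orc4 (-2.67) and Pola1 (-2.35) were lower in the remaining Cre-positive hepatectomy library, replicate 2. These genes are at 38.6%, 36.8% and 41.5% GC. In that library the median log2 difference from the sham mean was -0.97 over all 3992 genes under 45% GC. A genotype difference of these genes cannot be told apart from that shift of the library.

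GC content separated the replication genes within Cre-positive hepatectomy replicate 2. The 46 genes run from 34.2% to 61.0% GC over their longest annotated transcript, and 14 of them are under 45%, 17 between 45% and 50% and 15 at 50% or more. In that library the median log2 difference from the sham mean was 0.96, 1.05 and 2.66 in these 3 classes, against 1.42, 1.61 and 2.31 in Cre-positive hepatectomy replicate 1. In Cre-negative hepatectomy livers the medians were 0.53, 1.16 and 1.72 in replicate 1 and 1.03, 1.23 and 1.77 in replicate 2. The order of the classes was thus the same in all 4 hepatectomy libraries. Over all genes, the median at 50% or more was above that under 45% in these libraries except Cre-positive hepatectomy replicate 1. Across the 46 genes, the Spearman correlation of GC content with the log2 difference of replicate 2 from replicate 1 was 0.55 in Cre-positive and 0.08 in Cre-negative hepatectomy livers, a description of genes that share their libraries. Orc4 and Pola1, at 36.8% and 41.5% GC, had the largest drops between the Cre-positive replicates, -2.65 and -3.03 on the log2 scale.

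**Figure D5:**
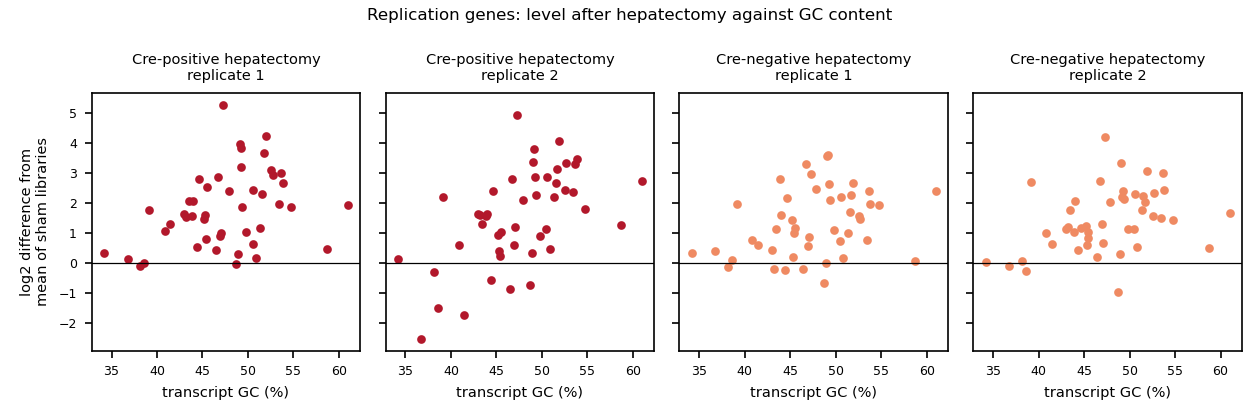
Log2 difference of each of the 46 genes from the mean of the sham libraries (vertical axis) against the GC content of its longest annotated transcript (horizontal axis), in each hepatectomy library. Of the 14 genes under 45% GC, 3 lie below -1 in Cre-positive hepatectomy replicate 2 and 0 in the other panels; in that library the class under 45% GC has a median of 0.96 and the class of 50% or more one of 2.66.

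At isoform level, 239 isoforms were listed for the 46 genes. A total of 8 genes had 1 isoform, and 33 of the other 38 had the same leading isoform in the hepatectomy and sham means. Orc1-001 was at 11.0 and 11.8 in Cre-positive and 8.67 and 7.52 in Cre-negative hepatectomy livers, and at most 0.249 in any sham library. Orc1-201 was at 1.06 and 0.308 in Cre-positive and 7.50 and 3.82 in Cre-negative hepatectomy livers, against 1.15 and 0.309 in Cre-positive sham livers and at most 1.01 in Cre-negative sham livers. The division of Orc1 between its isoforms therefore differed between the hepatectomy groups while its total did not separate them. Orc6-202 was at 0.699 and 0.258 in Cre-positive and 33.0 and 17.7 in Cre-negative hepatectomy livers, and at most 1.75 in sham livers. These genes were chosen after their values were seen, isoform values were not tested, and the assignment of reads to isoforms can vary between libraries.

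A second list of 34 genes that assist replication, none of them among the 48, was set beside them. Averaged over genotypes 11 of the 34 rose and 0 fell (3.64% and 0.845% of all genes), with a median log2 fold change of 0.80 against 0.12 over all genes. In Cre-positive livers 5 rose (0.845% of all genes) and in Cre-negative livers 4 (1.01%). Uhrf1, which recruits maintenance DNA methylation to new DNA, was at 239 and 139.9 in Cre-positive and 119 and 97.7 in Cre-negative hepatectomy livers, against 6.36 and 7.86 in Cre-positive and 4.46 and 9.24 in Cre-negative sham livers (18.2-fold, log2 4.18, SE 0.30, adjusted p = 0.00288). Pclaf, a clamp-binding factor, was at 21.4 and 16.6 in Cre-positive and 15.0 and 21.0 in Cre-negative hepatectomy livers, against 0.991 and 0.462 in Cre-positive and 1.42 and 2.40 in Cre-negative sham livers (8.72-fold, log2 3.12, SE 0.29, adjusted p = 0.00348). Both were well above sham in every hepatectomy library. Asf1b, the histone chaperone that hands histones to the chromatin assembly factor, rose 11.5-fold (log2 3.53, SE 0.34, adjusted p = 0.00381). Chtf18, the large subunit of an alternative clamp loader, rose 15.3-fold (log2 3.94, SE 0.41, adjusted p = 0.00443).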

How the data were processed

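Whole liver RNA of 8 libraries was measured, grouped by sample title. The authors deposited a normalized signal for genes and isoforms, not counts; TopHat, Cufflinks and the builds mm9 and NCBIM37 are named per the submitters' processing notes, with no versions, and how the signal was normalized is not stated in them. FPKM was assumed when the tests were written down, and the same limma test was run on the signal. Whole reads could not be recovered, so depth is unknown and no counting interval is given.

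From the deposited signal, log2(signal + 1) was fitted with limma 3.58.1 in R 4.3.3: a mean for each of the 4 groups, a shared spread moderated along intensity (residual degrees of freedom 4, prior 3.25), a minimum mean signal of 1 (16443 genes), two-sided tests and Benjamini-Hochberg adjustment over all genes with a threshold of 0.05. Genotype means were weighted equally in the averaged contrast. The script was tested on simulated data. The 46 genes, the other lists and the tests were chosen with earlier results of these data known. Values in every library are given, in each role, for up to 4 genes with the smallest p in the averaged contrast and for genes with a negative fold change; others were added after their values were seen. GC content is that of the longest GENCODE M21 transcript, and promoters are RefSeq GRCm38.p6, so no coordinate comes from the deposited files. Alternatives were pseudocounts, filters, scalings, weights, GC adjustment (loess, span 0.5), fits of the compared groups alone and leaving out each library. Replicate numbers were given in accession order and pair nothing. The erythroid sum was taken over the markers above 0 in every library, a choice made after the values were seen.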

Additional observations from a re-analysis of the deposited data

How the results depend on the processing

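No paired analysis was possible because the replicate numbers follow accession order and are not shared between groups in the labels. The median log2 fold change of the 46 genes after hepatectomy stayed above 1 under every setting run. Averaged over genotypes it was 1.06 with a pseudocount of 10, 1.39 with a minimum mean of 10 (43 genes left), 1.40 with median-of-ratios scaling, 1.39 with quantile normalization and 1.35 with GC adjustment. In Cre-positive livers it was 1.29 with a pseudocount of 10 and 1.77 with GC adjustment. In Cre-negative livers it was 1.10 with a pseudocount of 10, 1.20 with median-of-ratios scaling, 1.23 with quantile normalization and 1.24 with GC adjustment. The median difference of Cre-positive from Cre-negative hepatectomy livers was 0.40, 0.43 and 0.57 with median-of-ratios, quantile and GC adjustment, and that of the responses 0.32 with quantile normalization and 0.44 with GC adjustment. Median-of-ratios scaling brought the all-gene median of the Cre-negative response to -0.0019, against 0.21 with the deposited scale.

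Calls were less stable than sizes. The counts below are of the replication genes only, without the share of all genes called under the same setting. The Cre-positive count of 15 was 1 with no filter, 0 with array weights and 0 with the compared groups alone. The fit with no filter tested 23636 genes and had a prior of 1.37 degrees of freedom. The Cre-negative count of 11 was 3 with no filter, 3 with median-of-ratios scaling, 5 with quantile normalization and 17 with array weights. The cause of these changes was not tested. The averaged count of 28 lay between 19 and 31 in the 9 other settings and between 13 and 36 when a library was left out; the Cre-positive count lay between 0 and 28, the Cre-negative count between 0 and 26, the genotype count after hepatectomy between 0 and 3 and in sham between 0 and 0, and the count for the difference of responses between 0 and 2. Medians with a library left out were 1.44 to 1.65 averaged, 1.47 to 1.56 in Cre-positive livers, 1.24 to 1.47 in Cre-negative livers, 0.11 to 0.23 for genotype after hepatectomy, 0.08 to 0.14 in sham and 0.06 to 0.21 for the difference of responses. Among the genes named by the rule, averaged directions changed in 3 cases: Orc4 (0.14) and Rfc1 (0.22) without Cre-positive hepatectomy replicate 2, their log2 fold changes otherwise reaching down to -1.18 and -0.43 without its replicate 1, and Orc5 (0.20) with GC adjustment. Of the other genes, Orc2 turned with median-of-ratios scaling (-0.11), with quantile normalization (-0.10), without Cre-negative hepatectomy replicate 2 (-0.12) and without Cre-positive hepatectomy replicate 1 (-0.22), and Pola1 without the last of these (-0.54). Of the genes with values in every library, Gmnn, Cdc45, Pold1, Pole2, Prim1, Rfc4, Rfc5 and Rfc2 lost their call in at least 1 setting that kept all libraries, while Orc6 and Cdc7 gained one with GC adjustment. Of the other genes that rose, Timeless kept its call in 4 of the 9 other settings, Mcm8 and Prim2 in 5 and Pola2 in 6. Depth is unknown, so what it limits cannot be stated.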

Other observations

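Among the 34 genes that assist replication, 4 had both hepatectomy libraries above both sham libraries in Cre-positive livers and both below them in Cre-negative livers, an arrangement found in 2.54% of all genes and in 0 of the 46 replication genes. They were Mcmbp, which binds and unloads the helicase, Dna2, a nuclease of long flaps, Ddb1, an adaptor of the ubiquitin ligase that degrades CDT1, and Kat7, a histone acetyltransferase, and were chosen after their values were seen. Mcmbp was at 258 and 269 in Cre-positive and 175 and 149.9 in Cre-negative hepatectomy livers, against 222 and 205 in Cre-positive and 229 and 224 in Cre-negative sham livers. Ddb1 was at 3288 and 3435 in Cre-positive and 1263 and 2070.0 in Cre-negative hepatectomy livers, against 3051 and 2751 in Cre-positive and 2337 and 2847 in Cre-negative sham livers. Kat7 had a small margin, with 182.2 in Cre-positive hepatectomy replicate 1 against 179.8 in Cre-positive sham replicate 2. The reverse arrangement was found in 4.31% of all genes, in 0 of the 34 genes and in 0 of the 46. The difference of responses did not pass for Mcmbp (log2 0.78, adjusted p = 0.595), Dna2 (0.89, adjusted p = 0.605), Ddb1 (0.89, adjusted p = 0.637) or Kat7 (0.70, adjusted p = 0.701).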
